A study of Rattus norvegicus with 54 samples.

Results

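The liver response of obese rats to AG035029, a ligand of the nuclear receptor PPARγ known here by its code name, was examined in 6 of the 54 arrays of a study of 3 tissues. The 3 AG035029 arrays were chosen by title and compared with the 3 arrays of untreated obese liver. All rats of both groups were male Zucker rats with the genotype fatty (fa/fa), in which the leptin receptor is defective, so that the control animals carry the same mutation as the treated ones. The untreated obese rats received normal chow. The other liver groups were lean (fa/+) males on normal chow and fatty (fa/fa) males given pioglitazone, rosiglitazone or troglitazone, with 3 arrays each. The same 6 groups were profiled in epididymal adipose tissue and gastrocnemius muscle. Each array held RNA pooled from 2 rats, so that the spread of a group is the spread between pools, and not between rats. The labels used here give no dose, no duration of treatment and no age.

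PPARγ works as a heterodimer with RXR and is best known as the receptor through which thiazolidinediones such as pioglitazone, rosiglitazone and troglitazone make fat cells store lipid and make the body more sensitive to insulin. It is abundant in adipose tissue and scarcer in normal liver, where the related receptor PPARα drives fatty acid oxidation. The liver answers to insulin, glucocorticoids and growth hormone, and through these routes adjusts lipid and glucose synthesis, amino acid breakdown, secreted binding proteins and the sex-dependent drug-metabolizing enzymes. The design asks what a ligand of PPARγ changes in the liver of an obese, insulin-resistant animal.

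Expression was measured with Affymetrix Rat Expression 230A arrays, on which a probe set reports a transcript as a MAS5 signal on a linear scale. Median signals were 225 to 248 in the AG035029 arrays and 224 to 226 in the untreated obese arrays. AG035029 array 1 had the smallest share of signals under 50 among the 18 liver arrays, at 14.7%, against 20.8% at most. Untreated obese array 3 had the highest 3′ to 5′ signal ratios of the 18, at 1.70 for GAPDH and 3.52 for actin. The liver label was borne out by albumin (Alb), at 81424 to 86987 with AG035029 and 81874 to 106169 without. Leptin (Lep), an adipocyte hormone, was at 18.8 to 24.1 and 23.4 to 96.0 respectively.

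Of 9519 probe sets tested in liver, 19 differed between AG035029 and untreated obese rats at an adjusted p under 0.05 in limma, or 0.2% of those tested. AG035029 raised 11 (0.116%) and lowered 8 (0.084%). The 14 with 1 gene symbol stand for 12 genes. Eif4ebp3, Igfbp1, Igfbp2, Per1, Fmo1, Camlg, Mettl7a and Asl rose, and Obp3, Cavin3, Elovl5 and Csad fell. In each of the 19 the 3 treated arrays lay wholly above or below the 3 untreated ones, which held for 13.6% of all probe sets tested. At an unadjusted p under 0.05 there were 898 probe sets (9.43%), of which 452 were higher (4.75%) and 446 lower (4.69%). Differences are given as log2(signal + 20), a scale that understates changes of weak signals, and the median over all probe sets was 0.00. The count of 19 depended on single arrays. It was 9 without AG035029 array 1, 10 without array 2, 12 without array 3 and 35 without untreated obese array 2, in which 25 were higher and 10 lower.

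**Figure D1:**
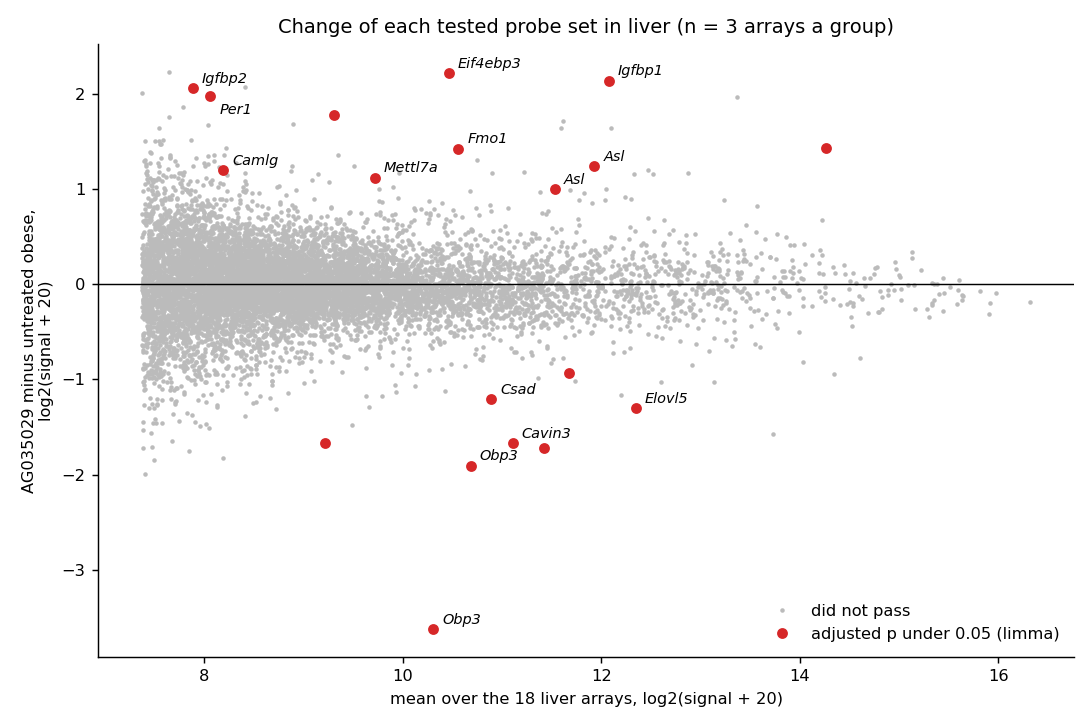
Difference between AG035029 and untreated obese liver for each of 9519 probe sets (vertical axis, log2 of signal plus 20) against its mean over the 18 liver arrays (horizontal axis, same scale). The 19 red points passed at an adjusted p under 0.05, those with 1 gene symbol are named, and Obp3 at -3.63 lies farthest from 0.

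Both binding proteins of insulin-like growth factors that passed were higher with AG035029. Igfbp1 encodes a secreted protein that binds IGFs, is made by hepatocytes and is normally held down by insulin. Its signals were 1159, 2049 and 1096 in untreated obese liver and 5448, 6558 and 6522 with AG035029. All treated arrays lay well above the highest untreated one, and the difference was 2.14 ± 0.42 (SE, n = 3 arrays a group, adjusted p = 0.0328). Igfbp2, a second IGF-binding protein, had weak signals of 62.3, 171 and 120 without ligand and 513, 372 and 748 with it. It rose by 2.06 ± 0.37 (adjusted p = 0.0163). In lean liver Igfbp1 ranged from 1312 to 4573, with 1 array within the untreated obese range and 2 between the obese groups, and Igfbp2 from 73.8 to 79.3.

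Per1, a repressor of the circadian clock that glucocorticoids also induce, was measured at 74.1, 71.7 and 165 in untreated obese liver and at 400, 478 and 453 with AG035029. The lowest treated array was above the highest untreated one, and Per1 rose by 1.99 ± 0.35 (adjusted p = 0.0141). Lean livers had 208, 383 and 392. Obese minus lean was -1.52 for Per1 (adjusted p = 0.0435), a comparison that uses the same untreated obese arrays. Per1 was the 1 member of 12 tested clock genes that passed, beside 0.116% higher and 0.084% lower over all probe sets. At an unadjusted p under 0.05 in limma, 1 clock gene was higher and 0 lower (4.63% and 4.92% of all genes tested). Bmal1 at -0.67, Nr1d1 at -0.72 and Per2 at 0.45, chosen here after their values were seen, did not pass.

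Promoters of genes that passed are shown for motifs that insulin, glucocorticoid and nuclear receptor signalling are known to use. The E-box, a further motif, was searched as well. RefSeq windows of 300 bases in GRCr8, from 250 before to 50 after the start, were matched for 11 of the 12 genes, Cavin3 not being among them. Both strands were searched for the insulin response sequence CAAAACA, the E-box CACGTG, the nuclear receptor half-site AGGTCA and the inverted repeat of the glucocorticoid response element. The first was found in 3 of the 11 windows (Igfbp1, Per1 and Obp3), against 6.28% of 33469 promoter windows. The E-box was in 2 (Igfbp2 and Elovl5), against 6.42%, the half-site in 1 (Eif4ebp3), against 16.2%, and the glucocorticoid element in 0, against 0.439%. The 3 windows with the insulin response sequence and that of Igfbp2 are printed 5′ to 3′ along the gene, with the motif in capitals. TGTTTTG is the same motif read on the other strand. It begins 121 bases before the start in Igfbp1 and 210 before it in Obp3, and 28 after it in Per1, while the E-box of Igfbp2 begins 140 before the start.
Igfbp1, chr14:86261027-86261326, plus strand: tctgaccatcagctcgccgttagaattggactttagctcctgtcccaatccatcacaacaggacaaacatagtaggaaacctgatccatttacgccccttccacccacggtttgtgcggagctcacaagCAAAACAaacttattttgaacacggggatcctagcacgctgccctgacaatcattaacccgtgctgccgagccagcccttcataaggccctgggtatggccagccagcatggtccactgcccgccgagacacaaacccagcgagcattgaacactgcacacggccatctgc
Per1, chr10:54304126-54304425, plus strand: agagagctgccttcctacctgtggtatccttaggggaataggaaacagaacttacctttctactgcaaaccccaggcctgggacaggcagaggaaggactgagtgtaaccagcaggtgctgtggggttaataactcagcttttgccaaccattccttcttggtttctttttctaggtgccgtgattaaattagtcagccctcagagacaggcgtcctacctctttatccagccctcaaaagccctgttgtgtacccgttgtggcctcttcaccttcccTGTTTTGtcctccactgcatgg
Obp3, chr5:79640626-79640925, minus strand: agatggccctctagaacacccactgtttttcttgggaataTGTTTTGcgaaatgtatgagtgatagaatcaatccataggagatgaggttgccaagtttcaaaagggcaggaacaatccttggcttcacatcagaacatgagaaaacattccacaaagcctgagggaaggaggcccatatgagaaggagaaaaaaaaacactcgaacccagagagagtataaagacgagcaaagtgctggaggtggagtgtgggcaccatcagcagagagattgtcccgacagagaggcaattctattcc
Igfbp2, chr9:81864561-81864860, plus strand: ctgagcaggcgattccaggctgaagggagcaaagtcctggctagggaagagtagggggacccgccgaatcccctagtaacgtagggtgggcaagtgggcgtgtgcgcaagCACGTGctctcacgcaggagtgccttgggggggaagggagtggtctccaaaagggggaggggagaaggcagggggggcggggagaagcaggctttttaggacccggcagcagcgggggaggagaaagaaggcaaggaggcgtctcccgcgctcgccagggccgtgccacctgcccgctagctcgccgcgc
A match describes letters only. Igfbp1 and Per1, which rose, and Obp3, which fell, share the motif in opposite directions of change.

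Eif4ebp3, an inhibitor of cap-dependent translation of the 4E-binding family, showed the largest rise among the named genes that passed. Its signals were 488, 490 and 1020 in untreated obese liver and 2686, 3757 and 2658 with AG035029, with lean livers at 664 to 1183. The difference was 2.22 ± 0.34 (adjusted p = 0.00416). Fmo1, a flavin-containing monooxygenase that oxidizes drugs and other foreign compounds, had 589, 781 and 512 without ligand and 1655, 1826 and 1608 with it. The treated arrays were close to one another, and the difference of 1.43 ± 0.18 had the smallest adjusted p of the comparison (0.00174). Lean livers stood at 1678 to 2039, and obese minus lean was -1.56 (adjusted p = 0.000148), again with the same untreated obese arrays. Mettl7a, a membrane methyltransferase of the endoplasmic reticulum and lipid droplets, had 439, 615 and 475 against 1095, 1121 and 1153. It rose by 1.12 ± 0.18 (adjusted p = 0.00747).

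Asl, argininosuccinate lyase of the urea cycle, had signals of 2322, 1958 and 1442 in untreated obese liver and 3993, 3565 and 3768 with AG035029. It rose by 1.003 ± 0.19 (adjusted p = 0.0193). A second probe set annotated as Asl rose by 1.25 ± 0.19 (adjusted p = 0.00416), but the accession it is built on belongs to Hnrnpab in the RefSeq table, so that its gene is uncertain. Camlg, an endoplasmic reticulum membrane protein that helps insert tail-anchored proteins, had 201, 116 and 143 against 413, 344 and 358. It rose by 1.20 ± 0.25 (adjusted p = 0.0466), and lean livers had 339 to 398.

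Obp3, a lipocalin of the alpha2u-globulin family that the liver of adult male rats secretes for excretion in urine, fell the most. One probe set had 2241, 3064 and 3440 in untreated obese liver and 185, 124 and 414 with AG035029. All treated arrays were far below the untreated ones, and the fall was -3.63 ± 0.49 (adjusted p = 0.0018). Lean livers had 10286 to 17898, above every obese array. The second probe set had 2035, 2530 and 1756 against 507, 415 and 752, a fall of -1.91 ± 0.35 (adjusted p = 0.0193). This second set is of a kind that can bind several members of this family of near-identical genes. Whether the first binds a single member was not tested, so that which member fell is uncertain. Mup5, a further member of the family, had 2677, 2257 and 3094 against 1693, 1265 and 1944 (-0.71, adjusted p = 0.154).

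Elovl5, which elongates polyunsaturated fatty acids, had 9203, 8489 and 7820 in untreated obese liver and 4821, 3085 and 2705 with AG035029. It fell by -1.30 ± 0.20 (adjusted p = 0.00416), and its second probe set gave -1.07 (adjusted p = 0.464). Cavin3, a coat protein of the membrane pits called caveolae, had 4663, 3512 and 4029 against 1678, 1393 and 844. It fell by -1.67 ± 0.26 (adjusted p = 0.00416). Csad, which makes the taurine precursor hypotaurine from cysteine sulfinic acid, had 3636, 2632 and 2219 against 1352, 1471 and 838. Its difference was -1.21 ± 0.23 (adjusted p = 0.029).

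**Figure D2:**
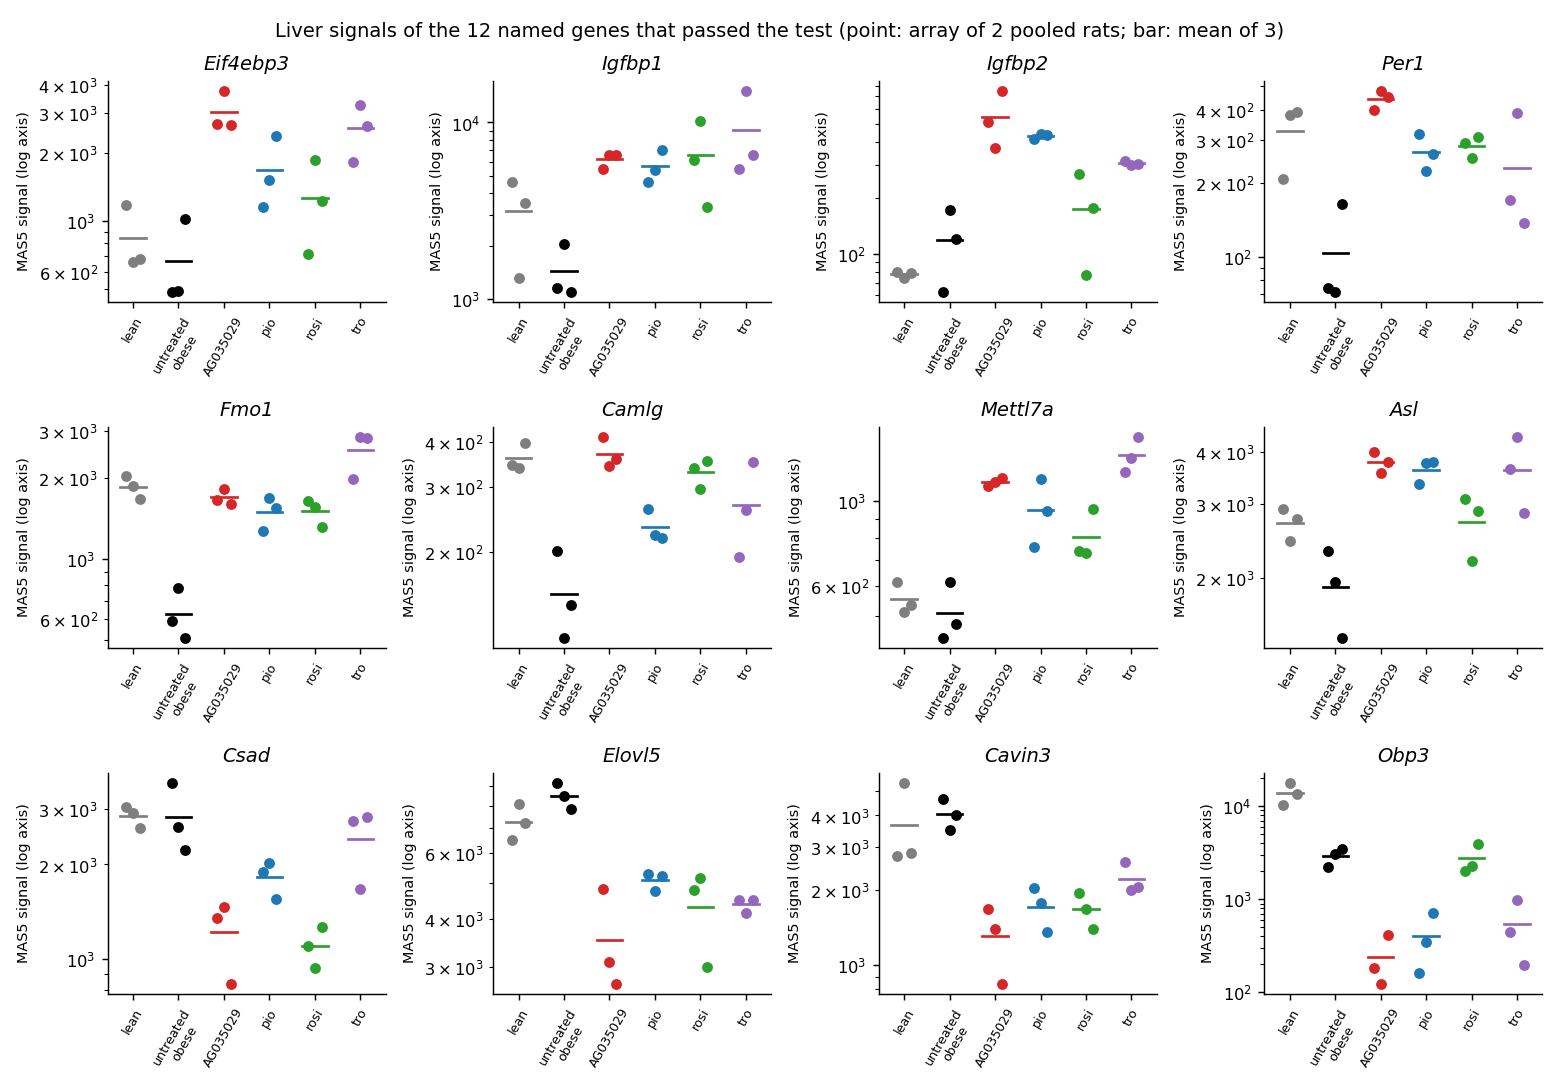
MAS5 signal (vertical log axis) of the 12 named genes in each liver array of 6 groups, with a bar at the mean of 3 arrays. In every panel the 3 AG035029 points do not overlap the 3 untreated obese points, and the lean points lie near the treated ones for Fmo1 and Camlg but above both obese groups for Obp3.

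Of the 19 calls, 7 held under the 10 other settings at the same threshold that could test them and without each of the 6 arrays in turn: those of Fmo1, Eif4ebp3, Mettl7a, Elovl5, Cavin3, the first Obp3 probe set and the uncertain Asl probe set. Each of the other 12 was lost without at least 1 array. Igfbp1 held without untreated obese array 2 alone, and its adjusted p without any other array was 0.0847 to 0.158. Igfbp2 lost its call without AG035029 arrays 1 or 3 or untreated obese array 1 (0.0747 to 0.115), and Per1 without any treated array or untreated obese array 1 (0.0522 to 0.0736). Asl in its first-named probe set was lost without any treated array or untreated obese array 3 (0.0698 to 0.123). Csad was lost without AG035029 arrays 1 or 3 or untreated obese array 1 (0.073 to 0.18). Camlg was lost without any array but untreated obese array 1 (0.109 to 0.156), and the second Obp3 set without AG035029 arrays 1 or 2 or untreated obese arrays 1 or 2 (0.0562 to 0.123). Without the variance trend the adjusted p was 0.113 for Igfbp1, 0.0789 for Asl, 0.0901 for Csad and 0.0779 for the second Obp3 set, and without the filter it was 0.0525 for Igfbp1. In a fit of only the 6 arrays compared it was 0.067 for Per1, 0.0635 for Igfbp2, 0.0698 for Asl, 0.102 for Csad and 0.248 for Camlg. Camlg was also lost with the replicate number as a block (0.0711), with array weights (0.0673), with median centring (0.063) and without the filter (0.109).

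A further 5 probe sets passed without a single gene symbol, and are described by their signals. The first rose from 297, 257 and 199 to 747, 1041 and 949 (1.79, adjusted p = 0.00768), and missed the threshold without AG035029 array 2 (0.0567). A bright one, annotated to Mt1f, Ttr and Mt1 together, rose from 7630, 15403 and 9857 to 27541, 29598 and 28165 (1.43, adjusted p = 0.0324). Its call held without untreated obese array 2 alone. Lean livers had 14168 to 24432 there. The other 3 fell. One went from 3182, 3840 and 3607 to 738, 835 and 1926 (-1.72, adjusted p = 0.0328), was at 7125 to 12864 in lean liver, and held without AG035029 array 3 alone. The next went from 908, 1110 and 1008 to 340, 356 and 227 (-1.67, adjusted p = 0.0193) and lost its call without any 1 of the 6 arrays (0.0542 to 0.115). The last went from 3814, 3272 and 5069 to 2043, 1732 and 2515 (-0.94, adjusted p = 0.0466) and lost its call without AG035029 arrays 1 or 2 or untreated obese arrays 1 or 3 (0.125 to 0.226).

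The named genes next in rank did not pass and are given as values. Bdh2, a cytosolic hydroxybutyrate dehydrogenase, had 68.4, 148 and 36.4 in untreated obese liver and 312, 274 and 314 with AG035029 (1.76, adjusted p = 0.0631). Irs3, an adaptor of the insulin receptor, had 356, 267 and 360 against 127, 132 and 70.1 (-1.45, adjusted p = 0.0537). The DNA repair gene Mgmt had 1880, 1647 and 1934 against 743, 888 and 762 (-1.17, adjusted p = 0.0622). Nmur1, a neuromedin U receptor, stood at -1.37 (0.0884), the G protein subunit Gng10 at -0.71 (0.0982) and the glycolytic enzyme Pgk1 at -0.74 (0.0982, with its other probe set at -0.24). These 6 genes were picked only among probe sets whose treated and untreated arrays did not overlap, which held for 13.6% of all probe sets tested.

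The receptors themselves showed no difference that passed. Pparg had 276, 281 and 365 with AG035029 and 524, 274 and 350 without (-0.26 ± 0.31, adjusted p = 0.856). Rxra, its partner, differed by -0.43 ± 0.39 (0.794) and Lepr, the leptin receptor mutated in these rats, by 0.68 ± 0.38 (0.615), with 0.02 in a second probe set. Ppara signals, 53.6 to 160 with AG035029 and 15.3 to 50.9 without, did not overlap but were too weak to be tested. Among 31 tested PPAR target genes, none passed, the median was 0.08, and 1 was higher and 3 lower at an unadjusted p under 0.05. Over the 7079 genes tested, each by 1 probe set, the median was -0.01 and those shares were 4.63% higher and 4.92% lower. Counts in the lists that follow stand beside these shares. Their calls at the adjusted threshold stand beside 0.116% higher and 0.084% lower over all probe sets. The 2 PPAR targets of smallest p were Me1, the NADPH-producing malic enzyme, at -1.13 (adjusted p = 0.195), and the acyl-CoA dehydrogenase Acadl at -0.43 (0.34). Cyp4a3 at 0.24, Ehhadh at 0.12, Cpt1a at 0.32, Cd36 at 0.37, Fabp1 at -0.28 and Plin2 at -0.19, chosen after their values were seen, all had overlapping arrays. A second Cpt1a probe set was at 0.89 (adjusted p = 0.457), also with overlapping arrays.

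In the insulin and IGF list, 2 of 21 tested members rose (Igfbp1 and Igfbp2) and none fell at the adjusted threshold (0.116% and 0.084% of all probe sets). This list, as all lists here, was chosen with earlier results of these data known, so that its count is a description. The list median was 0.09. At an unadjusted p under 0.05, 3 members were higher and 4 lower (4.63% and 4.92% of all genes tested). Igf1, the growth factor these proteins bind, had 15999, 16261 and 14860 in untreated obese liver and 11300, 10691 and 8211 with AG035029. The arrays did not overlap, but the difference of -0.65 ± 0.19 did not pass (adjusted p = 0.21), and its other probe set gave -0.46. Igfals, which carries IGFs in a circulating complex, stood at -0.89 (0.269) and the insulin receptor substrate Irs2 at 1.35 (0.26). The growth hormone receptor Ghr was at -0.67 (0.14) in one probe set and 0.38 in the other. Igf1, Igfals, Irs2 and Ghr were named after their values were seen.

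In the list of glucocorticoid-responsive and stress genes, 2 of 20 tested members rose (Per1 and Igfbp1), none fell, and the median was 0.23. Both are counted in other lists as well, Per1 among the clock genes and Igfbp1 in the insulin and IGF list. At an unadjusted p under 0.05 there were 5 higher and 0 lower (4.63% and 4.92% of all genes tested). Mt2A, a metal-binding metallothionein that glucocorticoids and stress induce, had 4430, 5916 and 4045 without ligand and 16282, 21248 and 18788 with it (1.97 ± 0.43, adjusted p = 0.0732). The chaperone Fkbp5, a further glucocorticoid target, was at 0.65 (0.3) and the stress gene Gadd45b at 1.24 (0.399). Pck1 at 0.19, Tat at 0.49 and Dusp1 at -0.02 had smaller differences, and the receptor Nr3c1 was at -0.29. All but Mt2A of these were picked after their values were seen. The bright probe set annotated to Mt1f, Ttr and Mt1 together passed (1.43, adjusted p = 0.0324 in limma). It has no single symbol and so stood for no gene in the lists.

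In fatty acid synthesis and desaturation, 1 of 22 tested members fell (Elovl5) and none rose. The list median was -0.33, and 0 members were higher and 6 lower at an unadjusted p under 0.05 (4.63% and 4.92% of all genes tested). Pklr, the liver pyruvate kinase, had 3132, 2187 and 3392 in untreated obese liver and 1675, 1422 and 926 with AG035029 (-1.12, adjusted p = 0.182). Me1 had 2114, 1433 and 1853 against 848, 1006 and 597. The desaturase Scd was at 23566, 21367 and 35786 against 22536, 15588 and 6035, so that its arrays overlapped (-1.03, adjusted p = 0.535). Fasn, which makes palmitate, was at -0.77 (0.586) and its regulator Srebf1 at -0.67 (0.592), while Acaca and Acly were at -0.03 and 0.19. The members beyond Elovl5 were singled out after their values were seen.

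The other lipid lists held no member that passed. Mitochondrial fatty acid oxidation had a median of -0.01 over 24 genes (1 higher, 2 lower at an unadjusted p under 0.05), peroxisomal lipid metabolism 0.14 over 19 (2 and 3) and omega oxidation 0.10 over 10 (2 and 1). In omega oxidation the cytochrome Cyp4f4 had 2857, 3046 and 2236 against 4108, 4400 and 4567 (0.69, adjusted p = 0.0982). Acaa2, the last thiolase of mitochondrial oxidation, was at 0.63 (0.369), and the peroxisomal Ech1 at 0.86 (0.291) and Phyh at 0.42 (0.399). Triglyceride and lipid droplet genes had a median of 0.04 over 17, with the droplet protein Plin3 at -0.51 (0.395) and the carboxylesterase Ces1d at 0.60 (0.57). Lipoprotein genes had a median of -0.06 over 18 (0 higher, 3 lower). Apoa4, a lipoprotein of chylomicrons and high-density particles, had 13955, 16876 and 16829 against 9623, 10668 and 8919 (-0.70, adjusted p = 0.208), and hepatic lipase Lipc was at -0.35 (0.515).

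For cholesterol synthesis and the sterol response the median was 0.37 over 17 tested genes, none of which passed. At an unadjusted p under 0.05, 5 were higher and 0 lower (4.63% and 4.92% of all genes tested). Tm7sf2, a sterol reductase, had 2226, 2509 and 2346 in untreated obese liver and 4011, 4035 and 3004 with AG035029 (0.63 ± 0.16, adjusted p = 0.14). Sqle, the squalene epoxidase of the pathway, was weak at 95.0, 12.1 and 43.2 against 527, 320 and 112 (2.24 ± 0.59, 0.149). Msmo1 was at 1.31 (0.199), Idi1 at 1.17 (0.221) and Hsd17b7 at 0.78 (0.3), but Lss, Fdps and Sc5d lay between -0.06 and -0.02. These 6 were chosen after their values were seen. In the bile acid list the median was 0.11 over 19, with 5 higher and 0 lower, beside the same shares of all genes. Cyp8b1, which makes cholic acid, had 4380, 3189 and 3949 against 8089, 7804 and 9802 (1.16, adjusted p = 0.193), the transporter Slco1a1 was at 0.86 (0.247), and Cyp7a1, the rate-limiting enzyme, ranged over 952 to 1970 against 966 to 6232 (0.99, 0.654).

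Genes of cytochrome P450 and drug oxidation had 1 rise (Fmo1) and no fall among 36 tested members, with a median of 0.22. Of these, 15 were higher and 5 lower at an unadjusted p under 0.05 (4.63% and 4.92% of all genes tested). Arrays did not overlap in 9 higher and 4 lower members (6.73% and 6.84% of all probe sets). Por, the reductase that passes electrons to the P450 enzymes, had 1465, 3289 and 1387 without ligand and 3357, 4695 and 3407 with it (0.99, adjusted p = 0.193, and 1.18 in its other probe set). Cyp2a1 had 3923, 3453 and 3389 against 7015, 7777 and 6894 (1.01, 0.1) and Cyp1a2 5488, 9404 and 5420 against 12363, 13432 and 10784 (0.89, 0.131). In the other direction, Cyp2c22 had 24195, 24667 and 24436 against 16491, 12535 and 12784 (-0.82, 0.0985). The examples other than Fmo1 and Por were taken after their values were seen. P450 genes lie in families of similar sequence, and probe sets may not separate them.

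Among sex-dependent and growth-hormone-dependent liver genes, 1 of 22 tested members fell (Obp3) and none rose. The median was -0.10, with 6 members higher and 8 lower at an unadjusted p under 0.05 (4.63% and 4.92% of all genes tested). Cyp2c11, the male-specific P450 that pulsatile growth hormone maintains, had 16798, 24343 and 14383 in untreated obese liver and 3370, 6402 and 10365 with AG035029. The arrays did not overlap, and the difference was -1.57 ± 0.39 (adjusted p = 0.129). The male-predominant Cyp3a2 was at 1.65 (0.284) with overlapping arrays and Cyp2a2 at -1.17 (0.399), while the female-predominant Cyp2c12 was at -1.29 (0.518) and Cyp2a1 at 1.01, as above. The members other than Obp3 were named after their values were seen. The hepatocyte markers, 30 tested, had a median of 0.01 and 0 members at an unadjusted p under 0.05 in either direction, and none passed.

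In urea cycle and amino acid metabolism, of 43 tested members 1 rose (Asl, by the probe set of uncertain gene that stands for it in the list) and 1 fell (Csad). The median was 0.16, with 8 members higher and 2 lower at an unadjusted p under 0.05 (4.63% and 4.92% of all genes tested). Gpt, the alanine aminotransferase, had 1623, 2612 and 2359 in untreated obese liver and 3833, 3660 and 5474 with AG035029 (0.97, adjusted p = 0.131). The aspartate aminotransferase Got1 had 1658, 1422 and 1464 against 6476, 5857 and 2893 (1.65, 0.14), and ornithine aminotransferase Oat 4244, 5105 and 2200 against 11082, 9130 and 5762 (1.20, 0.284). The 4 other enzymes of the urea cycle did not pass, with Cps1 at 0.22, Otc at 0.10, Ass1 at 0.18 and Arg1 at 0.18. A second Cps1 probe set was at 0.53 ± 0.19 (adjusted p = 0.346), with arrays that did not overlap. These 7 were chosen after their values were seen. Branched-chain amino acid breakdown had a median of 0.15 over 20 genes (2 higher, 0 lower), with Mccc1 at 0.76 (0.25) and Acadsb at 1.005 (0.528).

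**Figure D3:**
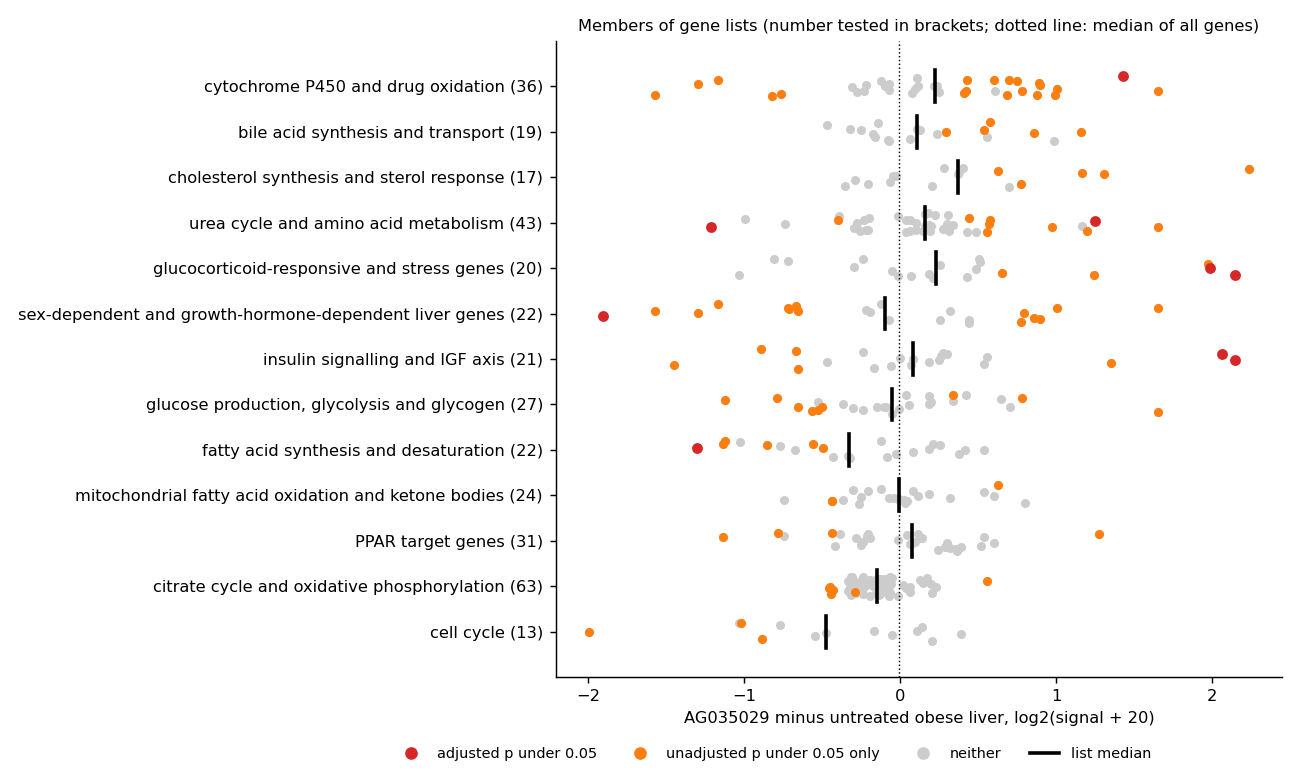
Difference between AG035029 and untreated obese liver (horizontal axis, log2 of signal plus 20) for each tested gene of 13 lists, with the number tested in brackets and a bar at the list median. Red points passed at an adjusted p under 0.05, orange points had an unadjusted p under 0.05 only, and medians run from -0.48 (cell cycle) to 0.37 (cholesterol synthesis).

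The list of glucose production, glycolysis and glycogen had no member that passed and a median of -0.05 over 27. At an unadjusted p under 0.05, 3 members were higher and 6 lower (4.63% and 4.92% of all genes tested). Pygl, the liver glycogen phosphorylase, had 4429, 4074 and 4980 without ligand and 3521, 2300 and 2138 with it (-0.79 ± 0.19, adjusted p = 0.119). Citrate cycle and respiratory chain genes had a median of -0.15 over 63, with 12 above 0 and 51 below, where 49.6% of all probe sets tested lay below 0. In 14 of the 63 the treated arrays lay wholly below the untreated ones (6.84% of all probe sets) and in 2 wholly above (6.73%). Of these 1 was higher and 5 lower at an unadjusted p under 0.05, and none passed. Idh2, a mitochondrial isocitrate dehydrogenase, was at 0.56 (0.14) and the complex III subunit Uqcrh at -0.43 (0.295). Proteasome genes (median -0.13 over 31, led by Psme2 at -0.53 and Psmd13 at -0.44), ribosomal protein genes (0.17 over 25, led by Rpl12 at 0.29 and Rpl4 at 0.34) and chaperones of the endoplasmic reticulum (-0.03 over 27, led by Herpud1 at 0.55 and Pdia6 at -0.35) also held no member that passed.

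Cell cycle genes were mostly too weak to test. The 13 tested of 30 on the array had a median of -0.48, and none passed. At an unadjusted p under 0.05, 0 were higher and 3 lower (4.63% and 4.92% of all genes tested). Ccnb2, a mitotic cyclin, had 297, 264 and 282 in untreated obese liver and 62.6, 79.3 and 32.3 with AG035029 (-1.996 ± 0.49, adjusted p = 0.129). Ccnd1, the cyclin of the G1 phase, had 757, 695 and 862 against 491, 332 and 310 (-1.02, 0.15), with -1.04 and -1.29 in its other probe sets. Acute phase and complement genes had a median of -0.05 over 35, and after Mt2A the mannose-binding lectin Mbl2 stood next at -0.85 (0.113). Interferon response genes had a median of 0.19 over 26 (4 higher, 1 lower), with the transcription factor Stat2 at 0.76 (0.284) and Oas1a at 0.84 (0.295). Conjugation and antioxidant genes had a median of -0.07 over 41, with Sult1c3 at -0.99 and Gstp1 at -0.83 (0.392 each). In immediate early genes (0.06 over 11) Egr1 was at 0.69 (0.511) and Klf2 at 0.72 (0.623), and in the nuclear receptor list (0.04 over 15) Nr1i3 was at 0.78 (0.379) and Nr1i2 at 0.41 (0.509).

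Markers of other cell types were summed per array, since in a tissue lysate fewer cells of a type and less RNA per cell cannot be told apart. None of the markers tested passed. Adipocyte markers (17 of 20 on the array, Pck1 and other genes that liver also makes among them) summed to 31811 to 33980 with AG035029 and 26947 to 31449 without. Their lead members were Cfd at 1.28 (adjusted p = 0.435) and Lpl at 1.28 (0.46), and the adipocyte fatty acid binding protein Fabp4 was at 346 in AG035029 array 2 and at most 34.2 in the other 5 arrays. Pancreatic acinar markers (16 of 21) summed to 4520 to 5990 against 3176 to 3899, with Spink1, which the sex-dependent list also holds, at 0.78 (0.39) and Cela1 at 0.66 (0.765). Skeletal muscle markers (23 of 24) summed to 11293 to 11983 against 12463 to 13555, with Myh1 at -0.22 and Atp2a1 at -0.41. The single Myh1 probe set gave most of that sum, and without it the sums were 2255 to 3387 against 2380 to 2575 and overlapped. In the adipocyte and pancreatic lists the sums of the groups did not overlap. With AG035029 the mean signal went from 1783 to 3054 for Spink1, from 180 to 373 for Cfd and from 116 to 254 for Lpl. The signals of Cfd and Lpl are small beside the adipocyte sums. Of the 10 adipocyte markers tested, 7 were above 0 and 3 below. Lep and Pparg, which this list also holds, had lower mean signals with AG035029. These sums were not taken again without single genes, and the part of these lists in the results was not tested.

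The remaining marker sums overlapped between the groups. Kupffer cell and macrophage markers (25 of 34) ranged from 21037 to 24516 with AG035029 and 19420 to 22746 without, led by Fcgr2b at 0.40 (adjusted p = 0.421) and Aif1 at 0.63 (0.527). Endothelial markers (20 of 28) ranged from 7830 to 8763 against 6416 to 8094, led by Ptprb at 0.62 (0.301) and Pecam1 at 0.83 (0.337). Hepatocyte markers (30 of 40) summed to 685279 to 755183 against 678837 to 776258, led by Hpd at 0.34 and Hnf4a at 0.44. Matrix genes (41 of 43, median 0.08, led by Col4a1 at 0.52 and Timp2 at 0.40), bile duct markers (13 of 17, -0.16, led by Epcam at 0.38 and Krt18 at -0.17) and red blood cell genes (9 of 19, 0.23, led by Tfrc at 0.48 and Rhd at -0.98) had no member that passed. Of the lymphocyte and granulocyte markers only 2 of 17 on the array were bright enough to test (Cd4 at 0.26 and Nkg7 at 0.14).

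The same genes were then read with the 3 thiazolidinediones, each against the same untreated obese arrays, so that the 4 comparisons are not independent of one another. Igfbp1 stood at 2.14 with AG035029, 2.0 with pioglitazone (adjusted p = 0.112), 2.09 with rosiglitazone (0.069) and 2.55 with troglitazone (0.00556). Fmo1 passed with each ligand, at 1.43, 1.25 (0.0127), 1.26 (0.00581) and 1.99 (7.47e-06) in the same order. Eif4ebp3 was at 2.22, 1.33 (0.271), 0.90 (0.402) and 1.97 (0.00893), Csad at -1.21, -0.61 (0.6), -1.32 (0.0266) and -0.24 (0.806), and Elovl5 at -1.30, -0.74 (0.284), -1.01 (0.069) and -0.95 (0.0281). In Obp3 the first probe set was at -3.63, -2.98 (0.0287), -0.12 (0.965) and -2.64 (0.0149).

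Direct tests between AG035029 and each thiazolidinedione covered 3 pairs and were adjusted over all 3 together, as groups of unstated dose. Between AG035029 and rosiglitazone 1 of 9519 probe sets passed (0.0105%), that of Obp3. Its signals were 185, 124 and 414 with AG035029 and 2020, 2300 and 3925 with rosiglitazone, a difference of -3.50 (95% interval -4.53 to -2.48, adjusted p = 0.018). Its second probe set gave -1.84 (0.212). This call was lost without AG035029 arrays 1 or 2 or rosiglitazone arrays 2 or 3, where 0 probe sets passed in limma, and without rosiglitazone array 1 there were 10. No probe set passed against pioglitazone (0%) or troglitazone (0%), where 398 and 645 had an unadjusted p under 0.05 in limma, and 717 did against rosiglitazone. Without pioglitazone array 1, 1 probe set passed, that of Sult1c3.

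These tests do not show that the ligands act alike, since the 95% interval of a difference reached 0.55 to either side for the median probe set. For Igfbp1 the difference of AG035029 was 0.14 from pioglitazone (-0.74 to 1.02), 0.05 from rosiglitazone (-0.83 to 0.93) and -0.40 from troglitazone (-1.28 to 0.48). For Eif4ebp3 it was 0.89 (0.17 to 1.61), 1.33 (0.61 to 2.05) and 0.25 (-0.47 to 0.97). For Igfbp2 it was 0.28 (-0.49 to 1.04), 1.63 (0.86 to 2.40) and 0.74 (-0.03 to 1.503). Those of Eif4ebp3 from pioglitazone and rosiglitazone and of Igfbp2 from rosiglitazone leave out 0, but they are not adjusted for the number of probe sets, and no adjusted p was under 0.05. The probe sets next in rank were Ccnd3, a G1 cyclin, at 203, 138 and 104 with AG035029 and 476, 545 and 408 with rosiglitazone (-1.59, adjusted p = 0.138), and the sulfotransferase Sult1c3 at 722, 731 and 1221 with AG035029 and 1995, 4432 and 5384 with pioglitazone (-2.04, 0.166).

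**Figure D4:**
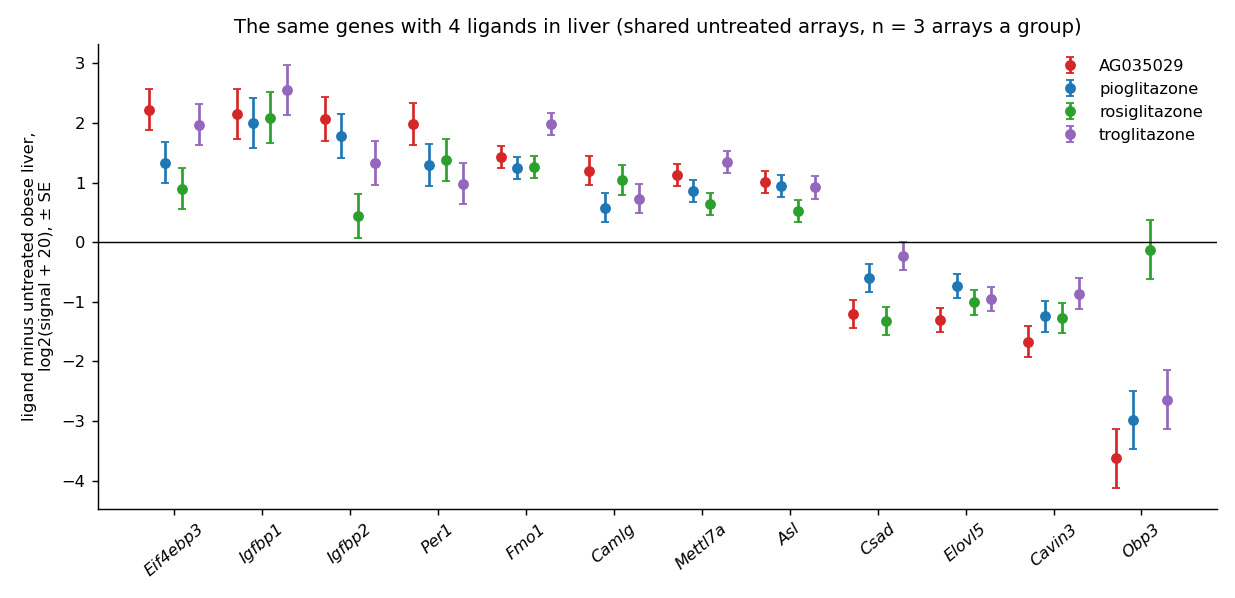
Difference of each of 4 ligands from the same untreated obese liver arrays (vertical axis, log2 of signal plus 20, with SE, n = 3 arrays a group) for the 12 named genes. Obp3 is the gene whose ligands lie farthest apart, from -3.63 with AG035029 to -0.12 with rosiglitazone.

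The AG035029 effect in liver was compared with that in the other tissues in a fit of all 54 arrays, where 11520 probe sets were tested and p-values adjusted over both tissue pairs together. That fit took all arrays as independent. Whether arrays of the same number in different tissues hold RNA of the same rats was not tested. The effect differed between liver and adipose tissue for 183 probe sets (1.59%; 74 with the higher difference in liver and 109 lower) and between liver and muscle for 74 (0.642%; 38 and 36). With each array centred on its median the splits were 50 and 118, and 27 and 45. Of the 19 probe sets that passed in liver, 10 differed from adipose tissue, 8 from muscle and 7 from both. As the 19 were chosen on the liver side of these differences, this count is a description. The count of 183 fell to 117 without adipose AG035029 array 2, 101 without adipose untreated obese array 1 and 113 without adipose untreated obese array 2, and to 122 at least without any other single array. It was 117 in a fit of only the arrays compared and 285 after quantile normalization, and the muscle count of 74 was 19 in a fit of only the arrays compared and 39 with array weights.

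In adipose tissue and muscle the named genes that passed in liver, by the probe sets plotted, had differences between -0.82 and 0.58. The probe set of uncertain Asl identity was at 0.91 in muscle. Its signals there were weak, at 44.4 to 183 with AG035029 and 19.4 to 39.5 without. The probe set annotated to Mt1f, Ttr and Mt1 together, bright in liver, was at 1.21 ± 0.64 in adipose tissue. Its adipose signals were 1994 to 2447 with AG035029 and 778 to 1216 without. In muscle it was at 1.18 ± 0.64, but on weak signals that overlapped. Those were 15.2, 174 and 410 with AG035029 and at most 91.6 without. The liver effect of this probe set did not pass against either tissue (0.22, adjusted p = 0.962, and 0.26, 0.953). Eif4ebp3 had 410, 383 and 328 in untreated obese adipose tissue and 310, 271 and 409 with AG035029 (-0.18 ± 0.30). In muscle it had 288, 500 and 334 against 329, 332 and 452 (0.01 ± 0.30). The liver effect was larger by 2.41 (adjusted p = 0.00124) and 2.21 (0.00293). Fmo1 was expressed in all 3 tissues, with 365 to 389 against 357 to 434 in adipose tissue (0.06) and 291 to 646 against 325 to 460 in muscle (-0.19). Its differences between tissues were 1.36 (0.0231) and 1.61 (0.00521).

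Csad had 2360, 1843 and 2413 in untreated obese adipose tissue and 2732, 3158 and 3535 with AG035029 (0.51 ± 0.22), the direction opposite to that in liver. The liver effect was lower by -1.72 (adjusted p = 0.00192) against adipose tissue and by -1.68 (0.00264) against muscle. Cavin3 was abundant in adipose tissue, at 4248 to 5276 against 3743 to 4186 (-0.22), and the liver effect was lower by -1.45 (0.00276) and, against muscle, by -1.89 (5.77e-05). Elovl5 had 7007 to 8185 against 7219 to 9066 in adipose tissue (0.11), with differences of -1.42 (0.0215) and -1.40 (0.022). Igfbp1 was weak in adipose tissue at 37.0 to 116 against 23.6 to 75.9, and the liver effect was larger by 2.77 (0.0231), but not past the threshold against muscle (2.04, 0.135). Per1, Mettl7a and the probe set of uncertain Asl identity passed in neither pair, with Per1 at 1.52 (0.217) and 1.998 (0.0643).

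**Figure D5:**
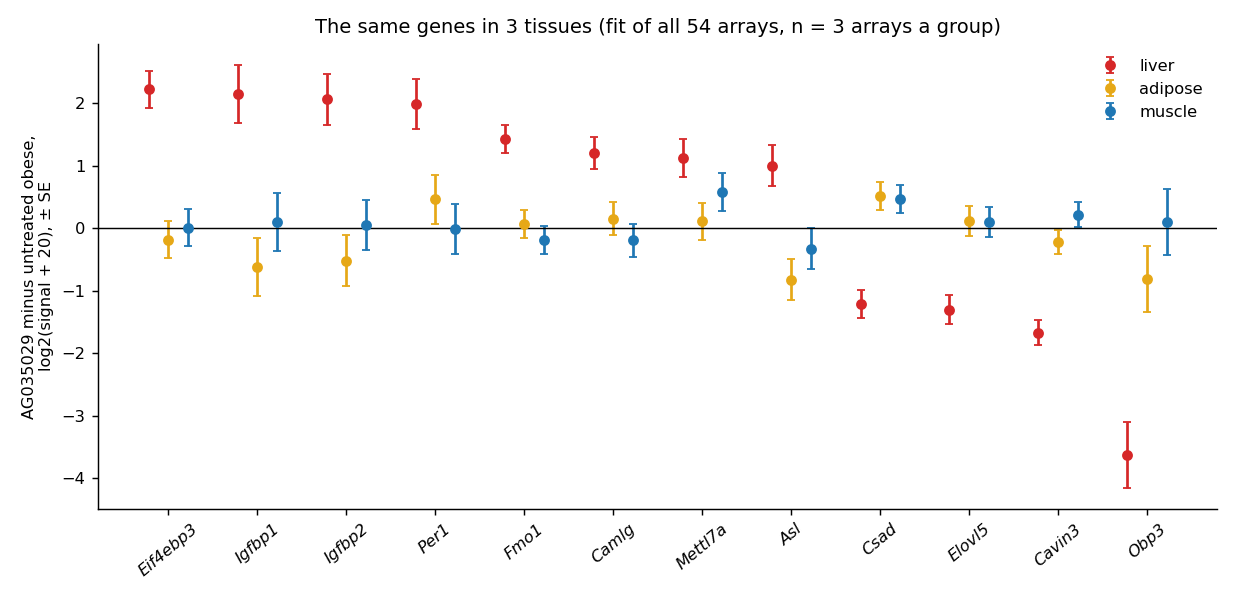
Difference between AG035029 and untreated obese rats (vertical axis, log2 of signal plus 20, with SE, n = 3 arrays a group) in liver, adipose tissue and muscle for the 12 named genes, from the fit of 54 arrays. Liver points run from -3.63 to 2.22, while those of adipose tissue and muscle lie between -0.82 and 0.58.

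Beyond these genes, the differences with the smallest adjusted p include several in which the liver arrays overlapped. Fabp3, the fatty acid binding protein of heart and muscle, was at 270, 322 and 231 in untreated obese liver and 254, 282 and 173 with AG035029, whereas its adipose signals went from 231, 402 and 583 to 9801, 9236 and 7705 (liver minus adipose -4.69, adjusted p = 1.66e-06). The P450 Cyp1b1 stood at 0.12 in liver and -2.88 in adipose tissue. The desaturase Scd went the other way in liver (-1.03) from muscle (2.52), a difference of -3.54 (0.00491). For Cd55, which guards cells against complement, the liver arrays did not overlap. Its signals were 23.8, 15.6 and 32.3 in untreated obese liver and 254, 203 and 124 with AG035029. It was too weak over all liver arrays to be tested in the liver fit, and the liver effect of 2.25 exceeded that in adipose tissue by 2.85 (0.000228) and that in muscle by 2.28 (0.00521).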

How the data were processed

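The arrays were deposited as signal intensities made with MAS5, per the submitters' processing notes, whose version is not given in the sources used here. The deposited values themselves show that each array had been scaled to the same trimmed mean. RNA of 2 rats was pooled for each array, per the labels' protocols. Of 15923 probe sets, 57 controls were left out, and 12783 of the rest had 1 gene symbol, 312 several and 2771 none. Values were transformed to log2(signal + 20). Probe sets whose mean log2 value over the 18 liver arrays was beyond percentile 40 were tested with limma 3.58.1 (R 4.3.3) in 1 fit of these arrays. Variances were trended, with Benjamini-Hochberg adjustment at 0.05. For the fit of all 54 arrays, a probe set was tested if its mean was beyond percentile 40 in at least 1 tissue. All adjusted p-values here are limma's, two-sided. Ligand pairs were adjusted over 3 pairs, and the tissue differences, from a fit of all 54 arrays, over 2. With 3 arrays a group, their number limits the precision.

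The probe set of highest mean stood for a gene in 37 lists of 1083 genes, of which 860 were on the array and 716 tested. Genes were named by rule. These were all that passed with 1 symbol and, if fewer than 10 passed in a direction, the next by unadjusted p up to 10. The latter were taken only from probe sets whose arrays did not overlap. Of each list, up to 4 passing members or its 2 of smallest p were named. Pparg, Ppara, Rxra and Lepr and those of smallest p in the ligand and tissue differences were added. Others are marked as chosen after their values were seen, except Lep, Mup5, Cyp7a1 and Fabp4, which also lay outside the rule. The members and lists were chosen with earlier results of these data known. Same-numbered AG035029 and untreated arrays deviated with correlations of -0.0036 to 0.058, so the numbers were not taken as pairs. The alternatives tried were pseudocounts of 5 and 80, other filters, array weights, no trend, centring on the median, a replicate block, quantile normalization, a fit of only the arrays compared, a threshold of 0.01 and leaving out each array.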

Additional observations from a re-analysis of the deposited data

Results flagged for a closer look

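The effect of AG035029 differed between liver and another tissue, by a test of the difference itself in limma, for the following probe sets, each given as the liver difference minus that of the other tissue on the log2(signal + 20) scale. Those that had passed in liver were chosen on that side of the difference.

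Against both tissues, the liver effect was higher for Eif4ebp3, by 2.41 against adipose tissue and 2.21 against muscle, and for Fmo1, by 1.36 and 1.61. It was lower for Obp3 (-2.81 and -3.72), Cavin3 (-1.45 and -1.89), Csad (-1.72 and -1.68) and Elovl5 (-1.42 and -1.40). Obp3 signals were weak in the other tissues, at 8.9 to 61.4 in adipose tissue and 3.8 to 28.9 in muscle, so that a fall there could hardly have been measured. An unnamed probe set, which fell in liver and was near background in the other tissues, gave -1.72 and -1.89. Against adipose tissue alone the difference passed for Igfbp1 (2.77), Igfbp2 (2.58) and Asl (1.83), and against muscle alone for Camlg (1.40).

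Among the probe sets of smallest adjusted p against adipose tissue, the liver effect was higher for the P450 Cyp1b1 (2.998), the membrane protein Tmem176b (2.04), Cd55 (2.85) and the collagen Col14a1 (2.09). It was lower for the transcription factor Nfatc4 (-2.36), Fabp3 (-4.69), albumin (Alb) in its 2 probe sets (-4.34 and -4.36) and Etfdh, an electron carrier of fatty acid oxidation (-1.64). For Alb the adipose difference was 4.15, while the liver difference was -0.19.

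Against muscle, the liver effect was higher for the transferrin receptor Tfrc in its 2 probe sets (2.22 and 1.90), for Lhfpl2 (3.25) and for Cd55 (2.28). It was lower for the retinol-binding protein Rbp7 (-3.65), Creg1 (-1.58) and Scd (-3.54).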

How the results depend on the processing

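The 19 probe sets that differed from untreated obese liver at an adjusted p under 0.05 became 8 at 0.01, stayed between 13 and 20 under the other settings tried on all arrays, and ranged from 9 to 35 when 1 array was left out. The members changed more than the count. Of the 19, 11 were among the 13 called without the trend and 13 among the 18 in a fit of only the arrays compared. Without untreated obese array 2, 15 were among the 35. With the replicate block there were 17 (the numbers were not taken as pairs). Against pioglitazone the count was 0 and ranged from 0 to 1 with 1 array left out. Against rosiglitazone the count of 1 became 0 at an adjusted p under 0.01, without the trend and with array weights, became 2 in a fit of only the arrays compared, stayed 1 with the replicate block, and ranged from 0 to 10. Of the liver minus adipose differences 183 became 44 at 0.01, 285 after quantile normalization, 117 in a fit of only the arrays compared, 188 with the block, and 101 to 183 with 1 array left out. Of the liver minus muscle differences 74 became 16 at 0.01, 39 with array weights, 19 in a fit of only the arrays compared, 82 with the block, and 56 to 96 with 1 array left out. The cause of these changes was not tested, apart from the stricter threshold and the fewer arrays. The split of the liver minus muscle calls, 38 higher and 36 lower, became 27 and 45 with median centring and 44 and 54 after quantile normalization. The median over all probe sets went from 0.03 to -0.06 against adipose tissue and from 0.04 to -0.05 against muscle with that centring. Over single values, 3749 kept their side of the threshold, 190 lost it and 32 gained it. Values that passed in neither setting count as kept, even where their sign changed, so that these totals do not measure how stable the calls are. Of the 19 liver calls, 12 were lost in some setting or without some array. Pooling 2 rats an array hides the spread between rats, and weak signals limit what could be tested.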
